A study of Mus musculus with 12 samples.

Results

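The mice of this comparison all received azoxymethane (AOM), a carcinogen, and dextran sulfate sodium (DSS), an irritant of the colon lining, and 3 of the 6 animals sequenced had been trained to swim. The members were chosen by group label, as the 3 libraries of swimming mice (Model_Swim) and the 3 libraries of mice that did not swim (Model), which are 6 of the 12 libraries of the series. Male C57BL/6 mice bought at 4 weeks of age were given AOM once by injection at 10 mg/kg and then 3 cycles of 2% DSS in drinking water. Model_Swim mice swam for up to 90 min per day, from before AOM until the end of the study, while Model mice were put in shallow water. Training took place at a fixed hour each morning. The other 6 libraries, which enter the fit and serve as background, came from mice that received neither agent, 3 without swimming (Ctrl) and 3 with it (Ctrl_Swim). Each library was made from the colorectal tissue of 1 mouse, a mixture of all its cell types that may hold tumour as well as uninvolved mucosa.

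The mammalian circadian clock is a feedback loop of transcription that runs in nearly every cell, the colon epithelium included. ARNTL (also called BMAL1) pairs with CLOCK or NPAS2 and binds E-boxes (CACGTG) to switch on the Per, Cry, Nr1d and Ciart genes, whose proteins then repress ARNTL or its gene. The same E-boxes drive the proline- and acid-rich bZIP factors DBP, TEF and HLF, which act on D-boxes in further genes, and NFIL3 competes with them there. In the colon, surface colonocytes burn fatty acids in their mitochondria and absorb salt and water, and lymphoid follicles full of B cells lie in the wall.

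Windows of 250 bases before the transcription start are shown for 5 genes that the comparison turns on or that belong to the clock, because they hold an E-box or a D-box. They were read from RefSeq (GRCm38.p6), run 5′ to 3′ on the gene's own strand, and carry the matched motif in capitals. The window of Tef lies at chr15:81802423-81802672 on the plus strand (1 of its 2 starts), Ciart at chr3:95882229-95882478 on the minus strand, Per1 at chr11:69098699-69098948 on the plus strand (1 of its 2 starts), Per3 at chr4:151044666-151044915 on the minus strand and Slc26a1 at chr5:108674797-108675046 on the minus strand (1 of its 2 starts).
Tef: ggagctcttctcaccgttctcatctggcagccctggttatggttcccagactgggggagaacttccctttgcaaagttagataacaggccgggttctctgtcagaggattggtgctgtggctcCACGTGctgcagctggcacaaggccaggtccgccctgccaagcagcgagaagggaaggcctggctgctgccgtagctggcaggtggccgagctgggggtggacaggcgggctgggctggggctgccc
Ciart: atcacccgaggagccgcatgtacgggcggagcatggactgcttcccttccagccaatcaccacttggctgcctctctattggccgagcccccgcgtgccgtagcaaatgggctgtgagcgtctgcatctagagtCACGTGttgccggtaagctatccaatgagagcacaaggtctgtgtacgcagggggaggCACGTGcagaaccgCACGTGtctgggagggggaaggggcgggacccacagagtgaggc
Per1: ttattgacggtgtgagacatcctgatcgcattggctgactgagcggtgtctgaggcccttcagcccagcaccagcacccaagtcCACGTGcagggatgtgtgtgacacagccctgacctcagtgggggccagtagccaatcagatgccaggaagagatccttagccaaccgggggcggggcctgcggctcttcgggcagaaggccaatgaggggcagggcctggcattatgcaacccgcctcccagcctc
Per3: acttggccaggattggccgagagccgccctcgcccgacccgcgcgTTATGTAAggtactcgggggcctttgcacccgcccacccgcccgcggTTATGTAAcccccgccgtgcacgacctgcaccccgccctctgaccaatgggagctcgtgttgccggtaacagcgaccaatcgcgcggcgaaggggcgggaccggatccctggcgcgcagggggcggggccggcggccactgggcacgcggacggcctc
Slc26a1: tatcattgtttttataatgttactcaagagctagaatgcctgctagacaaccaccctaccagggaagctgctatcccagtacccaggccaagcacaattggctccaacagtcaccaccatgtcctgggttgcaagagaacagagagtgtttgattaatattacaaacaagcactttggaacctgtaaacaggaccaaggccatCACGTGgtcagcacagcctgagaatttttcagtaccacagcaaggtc
Ciart holds 3 E-boxes, the nearest beginning 44 bases before the start, Slc26a1 holds 1 beginning 47 bases before it, and Per3 holds 2 D-boxes. The motifs searched were CACGTG as E-box, TTATGTAA or TTACGTAA as D-box and TAGGTCA or TGGGTCA as the half-site that RORs and REV-ERBs bind, on both strands, none of which contains another. Of the 11 genes past the cutoffs below, 9 had an entry in the promoter table, and 3 of these held an E-box at some start, 1 a D-box and 0 a half-site. Of the 27 genes of the clock lists, 21 had an entry and 5 held an E-box, 1 a D-box and 1 (Nfil3) a half-site. Over all 32851 windows of this length, 6.02% held an E-box, 0.931% a D-box and 5.38% a half-site. These are shares of single windows, while a gene was counted if any of its starts matched. Whether the counts differ from the shares was not tested, and a match describes the window only.

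Between 17256953 and 18589511 reads per library were counted on genes in the 6 libraries, so a count of 3, the limit that a count of 0 allows, lay between 0.161 and 0.174 CPM (counts scaled to a common library total). This limit covers counting error only. Levels are given as CPM after scaling by edgeR's trimmed mean of M-values (TMM). The tissue label was checked against markers of colon. Cdx2, the transcription factor of intestinal epithelium, had 131, 152 and 227 CPM in Model 1 to 3 and 215, 218 and 219 CPM in Model_Swim 1 to 3, and Krt20 (keratin of surface colonocytes) and Muc2 (the main mucin) were abundant in all 6 libraries (579, 629.8 and 841 CPM in Model and 969.5, 865 and 922 CPM in Model_Swim for Krt20). Car1, a carbonic anhydrase of colonocytes, had 410.4, 277 and 4731 CPM in Model and 6034, 6287 and 5932 CPM in Model_Swim, so that Model 1 and Model 2 lay far below the other 4 libraries. Model 1 and Model 3 also held many reads of pancreatic enzymes, described further down, and calls that change when a Model library is left out are described after the spread among these libraries.

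Swimming AOM/DSS mice differed from AOM/DSS mice without swimming in 11 of the 15484 genes tested, and 7 of the 11 are genes of the circadian clock and its outputs. A gene was called when its adjusted p lay below 0.05 and its fold change above 2 or below 0.5 (edgeR's quasi-likelihood test in a fit of all 12 libraries, Benjamini-Hochberg adjustment over all genes tested). This is 0.071% of the genes tested, 10 of them higher (0.0646%) and 1 lower (0.00646%) in Model_Swim. The split depended on the tool and the filter, since DESeq2 called 41 genes higher and 59 lower, and edgeR without a filter on low counts 16 higher and 18 lower. The D-box factors Tef and Dbp, the repressors Nr1d1, Nr1d2, Ciart and Per3, the anion exchanger Slc26a1, the ganglioside synthase St3gal5 and Gm6086 rose, and the activator Arntl fell. The adjusted p alone gave the same number of genes, and at an unadjusted p under 0.05 there were 2102 genes (13.6%), 1032 higher (6.66%) and 1070 lower (6.91%). In 2615 genes (16.9%) the 3 Model_Swim values lay all above or all below the 3 Model values, 1288 above (8.32%) and 1327 below (8.57%). The median log2 fold change over all genes tested was -0.01.

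Among the clock outputs, every Model_Swim library stood above every Model library for 5 of the 6 tested members of the list (8.32% of all genes tested). Of these, 2 (Tef and Dbp) passed the test, as 0.071% of all genes tested did. Tef, a D-box activator, had 32.7, 38.1 and 43.2 CPM in Model 1 to 3 and 117, 122 and 103 CPM in Model_Swim 1 to 3. On the log2 scale it rose by 1.58 ± 0.12 (standard error of the fold change), and its adjusted p, 0.000895, was the lowest of all genes. Dbp, of the same family, had 6.97, 11.6 and 21.1 CPM in Model and 63.7, 69.9 and 56.7 CPM in Model_Swim (2.26 ± 0.29, adjusted p = 0.0134). The Model libraries were themselves widely spread for Dbp, with Model 3 the highest, and still lay well under the Model_Swim libraries. Hlf, the other activator of this family, had 3.65, 8.93 and 11.3 CPM in Model and 21.2, 15.9 and 12.4 CPM in Model_Swim (1.06 ± 0.32, adjusted p = 0.223), without overlap but close together at the edges. Usp2, a ubiquitin-specific protease under clock control, had 8.42, 16.5 and 14.7 CPM against 24.6, 27.0 and 17.9 CPM (0.81 ± 0.23, adjusted p = 0.211), and Wee1, a kinase that delays mitosis, 17.6, 18.3 and 19.9 CPM against 21.7, 20.5 and 22.1 CPM (0.21 ± 0.08, adjusted p = 0.314). Nfil3, the repressor at D-boxes, pointed the other way, with 14.4, 14.4 and 14.1 CPM in Model and 6.27, 5.77 and 5.88 CPM in Model_Swim (-1.26 ± 0.28, adjusted p = 0.121). Its values were tight within each group and did not overlap, yet it did not pass the test over all genes.

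Among the repressors of the loop, 4 of 14 tested genes passed, all higher in Model_Swim (0.0646% of all genes tested). No overlap in that direction was found in 9 of the 14 (8.32% of all genes tested). Nr1d1, which encodes the nuclear receptor REV-ERB alpha that silences Arntl, had 44.2, 57.5 and 76.3 CPM in Model and 177, 165 and 169.9 CPM in Model_Swim (1.52 ± 0.16, adjusted p = 0.00294). Nr1d2, its paralogue REV-ERB beta, had 53.9, 53.9 and 68.6 CPM and 113, 127 and 124 CPM (1.05 ± 0.11, adjusted p = 0.0025). In both genes the lowest Model_Swim library stood far above the highest Model library, which was Model 3. Ciart, a repressor that acts on the ARNTL complex, had 0.590, 0.926 and 2.18 CPM in Model and 8.64, 11.4 and 8.27 CPM in Model_Swim (2.94 ± 0.36, adjusted p = 0.0109), resting on 11, 17 and 38 counts in Model and 157, 209 and 156 counts in Model_Swim. Per3 rose from 18.9, 29.9 and 23.9 CPM to 55.7, 50.1 and 46.5 CPM (1.07 ± 0.13, adjusted p = 0.0128). The other period genes lay on the same side without passing the test: Per1 had 27.5, 25.6 and 19.0 CPM in Model and 59.99, 44.1 and 53.9 CPM in Model_Swim (1.13 ± 0.18, adjusted p = 0.0603), and Per2 21.8, 16.6 and 22.2 CPM and 45.4, 38.9 and 30.8 CPM (0.92 ± 0.22, adjusted p = 0.14). The cryptochromes, partners of the period proteins, were split. Cry2 had 25.0, 25.3 and 33.5 CPM in Model and 41.8, 39.8 and 37.1 CPM in Model_Swim (0.50 ± 0.12, adjusted p = 0.146), while Cry1 had 18.9, 25.8 and 26.2 CPM and 20.03, 14.5 and 13.5 CPM (-0.56 ± 0.19, adjusted p = 0.256) with an overlap. The kinases of the loop, Csnk1d and Csnk1e, had log2 fold changes of 0.00 and -0.13 and overlapped.

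Among the activators, Arntl passed the test, and all 6 tested genes had a log2 fold change below 0. Arntl had 45.0, 62.2 and 46.8 CPM in Model and 19.8, 18.4 and 19.6 CPM in Model_Swim (-1.41 ± 0.18, adjusted p = 0.0134), with the 3 swimmers close together. Npas2, which can replace CLOCK as its partner, had 34.3, 41.4 and 23.5 CPM and 18.5, 17.3 and 14.4 CPM (-0.98 ± 0.18, adjusted p = 0.066). Clock had 135, 152 and 122 CPM in Model and 119, 121 and 113 CPM in Model_Swim (-0.22 ± 0.10, adjusted p = 0.367), so a gap without overlap but of small size. Rora and Arntl2 had log2 fold changes of -0.02 and -0.54 with overlapping libraries, and Rorb had too few counts to be tested. Per transcript length (FPKM), Nr1d1 was the most abundant of the clock genes that passed, at 16.2, 21.6 and 27.9 FPKM in Model and 64.1, 60.4 and 62.4 FPKM in Model_Swim, followed in Model_Swim by Nr1d2, Dbp and Tef at 19.7 to 28.1 FPKM, whose libraries overlap, and by Per3, Ciart and Arntl at 3.11 to 5.04 FPKM. In Model the order differed, since Arntl at 8.12, 11.4 and 8.41 FPKM stood level with Tef at 6.26, 7.45 and 8.23 FPKM. The hour of day at which tissue was taken is not given in the sources used here, and transcripts of these genes cycle over the day.

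**Figure D1:**
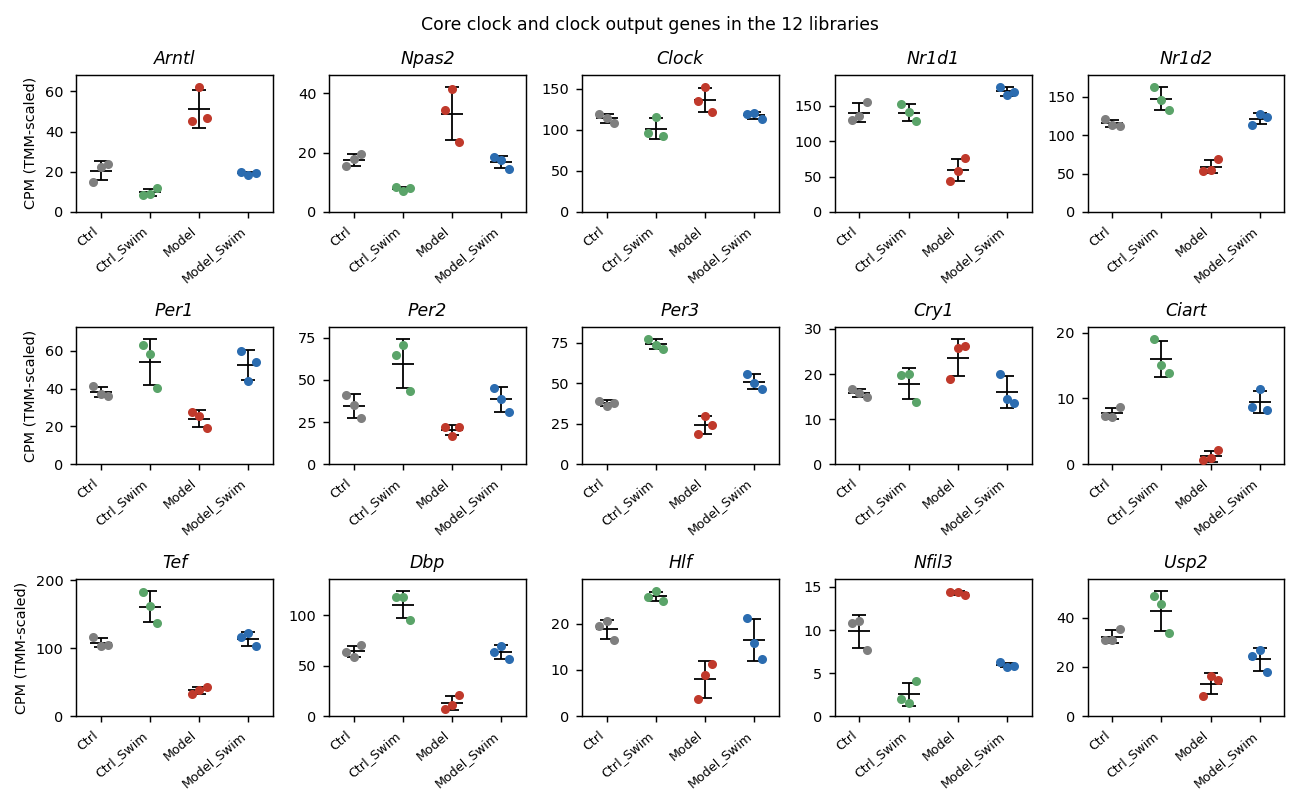
CPM (TMM-scaled, axes from 0) of 15 clock genes in each of the 12 libraries, grey for Ctrl, green for Ctrl_Swim, red for Model and blue for Model_Swim, with the mean and SD of each group in black (n = 3). Arntl, Npas2 and Nfil3 are highest in the red Model libraries, and Tef, Dbp, Ciart, Nr1d1, Nr1d2 and Per3 are lowest there.

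The untreated mice show where these levels lay without AOM/DSS. Tef had 116, 103 and 105 CPM in Ctrl and 183, 162 and 138 CPM in Ctrl_Swim, and Dbp 64.0, 58.9 and 70.0 CPM and 118, 118 and 95.2 CPM. Ciart had 7.29, 7.196 and 8.69 CPM in Ctrl and 19.0, 15.1 and 13.8 CPM in Ctrl_Swim, and Arntl 15.0, 22.2 and 24.0 CPM and 8.49, 8.99 and 11.7 CPM. For these 4 genes, Model_Swim libraries thus overlapped or adjoined the Ctrl libraries. In the same 4, Ctrl_Swim libraries lay beyond Ctrl in the direction in which Model_Swim differed from Model. Nr1d1, also called, did not show this. It had 2363, 2482 and 2840 counts in Ctrl and 2789, 2647 and 2506 counts in Ctrl_Swim, which overlap, against 3213, 3035 and 3205 counts in Model_Swim. The comparison of swimming in untreated mice uses none of the 6 AOM/DSS libraries as its groups but shares the fit. In it 26 genes (0.168%) passed the same cutoffs. Arntl (log2 fold change -1.07 ± 0.19, adjusted p = 0.0343), Npas2 (-1.16 ± 0.19, adjusted p = 0.0266) and Nfil3 (-1.95 ± 0.29, adjusted p = 0.021) met them. Per3 (0.97 ± 0.13, adjusted p = 0.0175) fell short by its fold, and Tef (0.57 ± 0.12, adjusted p = 0.0553) by both. The interaction term, which asks whether the effect of swimming differed between AOM/DSS and untreated mice, gave 0 genes by edgeR (0% of genes tested) and 2947 (19%) at an unadjusted p under 0.05, and the lowest adjusted p, 0.0547, was that of Slc26a1. DESeq2 counted 209 genes in the interaction.

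Outside the clock, the anion exchanger Slc26a1 went from near 0 to a measurable level. Slc26a1, which exchanges sulfate, oxalate and bicarbonate across epithelial membranes, lies at chr5:108669878-108678380 in GRCm38.p6 and had 0.107, 0.109 and 0.459 CPM in Model and 6.66, 7.07 and 6.41 CPM in Model_Swim. Behind the Model values are 2, 2 and 8 counts, and over the group the 372 counts of Model_Swim against 12 of Model give a ratio of 30.5 (95% counting interval 17.2 to 59.5). The fitted log2 fold change was 4.88 ± 0.50, adjusted p = 0.0025. In untreated mice it had 8.33, 8.50 and 7.04 CPM in Ctrl and 12.5, 5.001 and 6.13 CPM in Ctrl_Swim, so the 3 Model libraries alone were near 0. Of the 10 tested SLC26 exchangers, 2 lay higher without overlap, where 8.32% of all genes tested did. Beside Slc26a1 this was the sulfate exchanger Slc26a2 (202, 396 and 339.5 CPM against 534, 467 and 416 CPM, 0.59 ± 0.22, adjusted p = 0.286). Slc26a3, the main chloride and bicarbonate exchanger of the colon, had 205, 564 and 246 CPM in Model and 525, 579 and 461 CPM in Model_Swim (0.63 ± 0.32, adjusted p = 0.432), and here Model 2 sat among the swimmers. Without Model 2 it passed the cutoffs (1.202 ± 0.20, adjusted p = 0.0264).

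St3gal5, which makes the ganglioside GM3 and lies at chr6:72097552-72154571, had 3.43, 4.20 and 3.96 CPM in Model and 17.9, 18.9 and 21.7 CPM in Model_Swim (2.34 ± 0.24, adjusted p = 0.0025). Both groups were tight and the gap between them was wide. Of the 23 tested enzymes of sphingolipids and gangliosides it alone passed, and the median of that list was 0.02. Degs2, a desaturase of ceramide synthesis, had 106, 115 and 140.0 CPM against 170.2, 155 and 167 CPM (0.45 ± 0.12, adjusted p = 0.173), and Sgpl1, the lyase that ends sphingosine phosphate, 135, 151 and 142 CPM against 164, 186 and 164 CPM (0.26 ± 0.08, adjusted p = 0.229). Gm6086, a name that RefSeq gives as a synonym of the galactose sulfotransferase Gal3st2c, had 6.75, 8.55 and 1.38 CPM in Model and 84.2, 64.7 and 68.3 CPM in Model_Swim (3.69 ± 0.48, adjusted p = 0.0135), with Model 3 the lowest of all. Gal3st2, a neighbouring member of the same family whose reads may be shared with it, had 8.63, 7.85 and 7.86 CPM and 12.6, 11.1 and 14.5 CPM (0.65 ± 0.23, adjusted p = 0.274).

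Several of these genes overlap a neighbour in the annotation (GENCODE vM21, GRCm38), and the strand setting of the counting is not given in the sources used here. Slc26a1 shares 5692 bases with Idua on the other strand, which had 17.0, 19.8 and 22.3 CPM in Model and 18.1, 16.2 and 17.4 CPM in Model_Swim (-0.19 ± 0.12, adjusted p = 0.51). Nr1d1 shares 1075 bases with Thra on the other strand (66.2, 79.9 and 66.4 CPM against 82.7, 71.3 and 74.6 CPM, 0.11 ± 0.09, adjusted p = 0.661) and Dbp 737 bases with Sphk2 (58.0, 63.3 and 70.4 CPM against 69.1, 65.1 and 72.6 CPM, 0.11 ± 0.09, adjusted p = 0.637). Per3 shares 41014 bases with Camta1 on its own strand (22.8, 22.4 and 16.8 CPM against 20.4, 18.8 and 17.5 CPM, -0.13 ± 0.12, adjusted p = 0.683). None of these 4 neighbours passed the test, and each had overlapping libraries between the groups.

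Next to the called genes stand 10 others, picked as the lowest unadjusted p among genes higher in every Model_Swim library, with adjusted p-values of 0.0551 to 0.0603. Besides Per1 they include transporters and a detoxification enzyme. Gclc, the catalytic subunit that makes the glutathione precursor, had 95.2, 113 and 136 CPM in Model and 198, 192 and 187 CPM in Model_Swim. Slc22a4, a carrier of ergothioneine and other organic cations, had 2.31, 2.02 and 1.89 CPM and 8.15, 5.98 and 5.99 CPM. Slc2a5, the fructose transporter, had 1.29, 2.72 and 2.98 CPM and 5.83, 8.92 and 7.95 CPM, and Vsig2, a surface protein of colon epithelium, 4.82, 7.90 and 12.9 CPM and 28.9, 22.6 and 37.1 CPM. Their log2 fold changes were 0.75 ± 0.12, 1.69 ± 0.26, 1.70 ± 0.28 and 1.79 ± 0.31. Fgfr2, a receptor for fibroblast growth factors, had 77.7, 79.9 and 80.3 CPM against 115, 119.9 and 135 CPM (0.63 ± 0.10, adjusted p = 0.0603). Tubb2a, Lrrn4cl and Lnx1 were also among them, with log2 fold changes of 0.46, 0.96 and 0.77. On the lower side, the matrix protein Spon2 had 64.2, 62.7 and 50.8 CPM in Model and 25.2, 25.3 and 28.3 CPM in Model_Swim (-1.17 ± 0.19, adjusted p = 0.0603), and the other 9 genes named by the same rule were all enzymes or proteins of the exocrine pancreas.

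**Figure D2:**
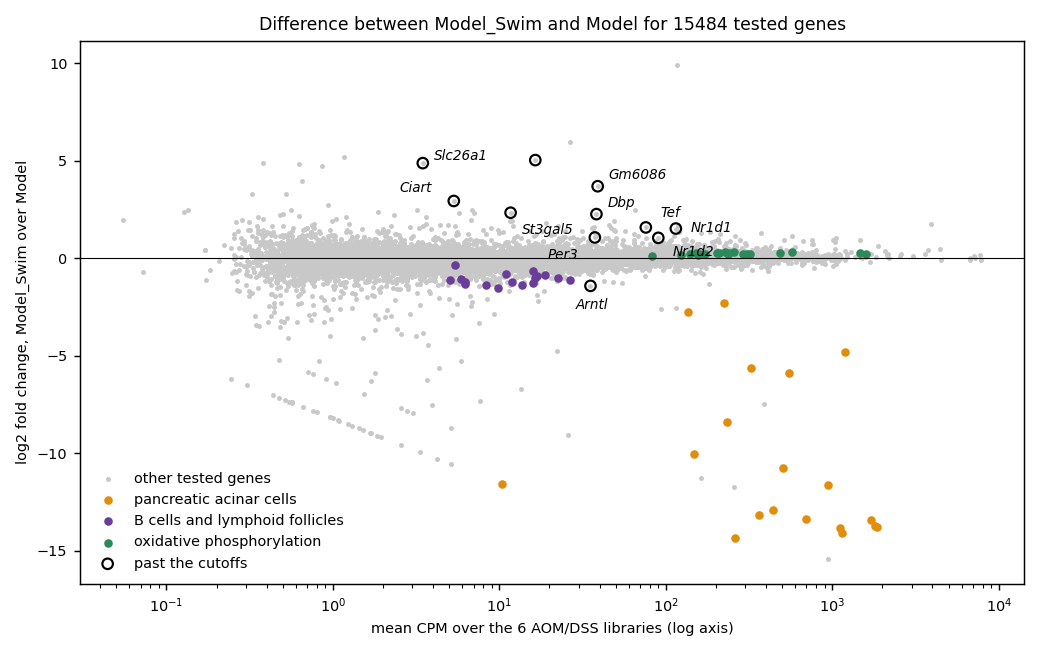
Log2 fold change of Model_Swim over Model against the mean CPM of the 6 libraries (log axis) for the 15484 tested genes. The 11 genes past the cutoffs are circled, 10 of them named. B cell genes (purple) lie below 0, oxidative phosphorylation genes (green) just above 0, and pancreatic acinar genes (orange) lie far below 0 without being called.

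Genes of B cells and lymphoid follicles were lower in swimmers with little spread among the Model libraries, though none passed the test singly. In 16 of the 17 tested genes all 3 Model_Swim libraries lay below all 3 Model libraries, where 8.57% of all genes tested did so, and the same number had an unadjusted p under 0.05. The median log2 fold change of the list was -1.09. The summed level was 276, 276 and 326 CPM in Model and 148, 159 and 115 CPM in Model_Swim. Cd79a, the signalling chain of the B cell receptor, had 33.7, 37.2 and 37.8 CPM in Model and 19.3, 17.0 and 13.9 CPM in Model_Swim (-1.11 ± 0.26, adjusted p = 0.141). Spib, a transcription factor of B cells and of the epithelium over follicles, had 18.9, 21.4 and 25.4 CPM and 11.3, 13.8 and 10.1 CPM (-0.90 ± 0.20, adjusted p = 0.128), and Cd22, an inhibitory receptor of B cells, 28.3, 25.8 and 37.0 CPM and 17.2, 16.4 and 10.9 CPM (-1.03 ± 0.44, adjusted p = 0.343). Ccr7, a homing receptor that T cells and dendritic cells also carry, was the exception that overlapped. In untreated mice the same list ranged more widely, with 148, 80.7 and 116 CPM in Ctrl and 105, 140.3 and 290.0 CPM in Ctrl_Swim. In bulk tissue, fewer cells of a type and less RNA per cell cannot be told apart.

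Other lymphoid lists leaned the same way with smaller differences. Of 11 tested genes of plasma cells and IgA transport, 7 lay lower without overlap (8.57% of all genes tested did) and the median was -0.45. Derl3, a chaperone factor of secreting cells, had 12.6, 10.2 and 15.7 CPM in Model and 7.38, 4.13 and 5.04 CPM in Model_Swim (-1.22 ± 0.29, adjusted p = 0.146), and Pou2af1, a co-activator of immunoglobulin genes, 23.7, 28.7 and 36.9 CPM and 16.2, 16.5 and 17.6 CPM (-0.83 ± 0.20, adjusted p = 0.153). Jchain, which joins IgA, overlapped at 873, 1168 and 1413 CPM against 1052, 727 and 840.3 CPM. Of 16 T cell genes, 6 lay lower without overlap, among them Ctla4 and Icos, receptors of activated T cells, at 5.20, 3.87 and 4.53 CPM against 2.15, 1.85 and 3.18 CPM and 4.93, 5.28 and 6.66 CPM against 3.03, 3.70 and 3.39 CPM, with a list median of -0.52. Of the 11 genes of MHC class II presentation, 3 lay lower without overlap (H2-DMb2, H2-Oa and H2-Ob). For Cd74, the invariant chain, Model 2 stood alone, with 584, 1476 and 699 CPM in Model and 579, 578 and 777 CPM in Model_Swim.

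Genes of mitochondrial respiration were higher in swimmers by a small and even amount. All 20 tested subunits of oxidative phosphorylation had a log2 fold change above 0, 18 had no overlap (8.32% of all genes tested lay higher without overlap), 17 had an unadjusted p under 0.05, and 0 passed. The list median was 0.24. Cox5b, a subunit of cytochrome c oxidase, had 180.5, 197 and 223 CPM in Model and 249, 252 and 263 CPM in Model_Swim (0.35 ± 0.08, adjusted p = 0.146), and Atp5a1, the alpha chain of ATP synthase, 1292, 1301 and 1454 CPM and 1575, 1597 and 1642 CPM (0.25 ± 0.07, adjusted p = 0.222). Both stood higher still in Ctrl, at 323, 328 and 334 CPM and 2007, 2037 and 2032 CPM. Of 22 genes of fatty acid oxidation and ketogenesis, 7 lay higher without overlap, 21 had a log2 fold change above 0 and the median was 0.29. Bdh1, of ketone body metabolism, had 116, 137 and 162 CPM in Model and 182, 176 and 168 CPM in Model_Swim (0.34 ± 0.11, adjusted p = 0.235), and Echs1, a hydratase of the oxidation spiral, 103, 104 and 113 CPM and 123, 127 and 125 CPM (0.23 ± 0.07, adjusted p = 0.24). Angptl4 was the gene of this list below 0 (-0.73 ± 0.50).

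Epithelial lists were less even. Of 20 genes of mature colonocytes, 7 lay higher and 1 lower without overlap (8.32% and 8.57% of all genes tested), with a median of 0.44. Guca2b, which encodes uroguanylin, had 11.0, 11.99 and 13.8 CPM in Model and 16.7, 18.6 and 17.1 CPM in Model_Swim (0.51 ± 0.11, adjusted p = 0.119), and Fabp2, an intestinal fatty acid binding protein, 90.4, 130.3 and 265 CPM and 398, 324 and 354 CPM (1.15 ± 0.31, adjusted p = 0.188). Of 14 genes of electrolyte absorption, 4 lay higher, among them Nr3c2, the mineralocorticoid receptor (61.4, 82.3 and 81.4 CPM against 108, 100.02 and 100.3 CPM, 0.45 ± 0.12, adjusted p = 0.188). The 16 goblet cell genes overlapped without exception, as in Muc2 with 3836, 7919.9 and 12815 CPM in Model and 9216, 6859 and 6659 CPM in Model_Swim. Of 22 proliferation genes, 11 lay lower without overlap and the median was -0.25, and the Mcm helicase genes of replication, which are in the list, overlapped, with Mcm7 at -0.14 and Mcm3 at 0.07. Mki67 had 288, 308 and 318 CPM in Model and 254, 249.7 and 223 CPM in Model_Swim (-0.33 ± 0.13, adjusted p = 0.315), and Aurkb, a mitotic kinase, 29.7, 29.6 and 28.5 CPM and 22.2, 21.6 and 21.0 CPM (-0.44 ± 0.16, adjusted p = 0.277). Of 22 Wnt targets and crypt stem genes, 6 had a log2 fold change above 0 and 2 lay higher without overlap, and Axin2, a direct Wnt target, had 156, 59.5 and 40.8 CPM in Model, where Model 1 stood apart, and 78.0, 81.4 and 75.4 CPM in Model_Swim. Without Model 1 the median of that list was 0.59, with 15 of the 22 genes higher without overlap, against -0.08 with it. In that fit fewer values must separate, and 2219 of all 15635 genes tested lay higher without overlap.

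Lists of stress, stroma and inflammation were uneven when read against the 8.32% of all genes that lay higher and the 8.57% that lay lower without overlap. Of 16 genes of the unfolded protein response, 5 lay lower without overlap, among them Creld2, an endoplasmic reticulum protein (49.0, 44.2 and 44.9 CPM against 37.3, 39.1 and 33.8 CPM, -0.33 ± 0.08, adjusted p = 0.147), with a list median of -0.16. Of 20 fibroblast and matrix genes, 4 lay lower, among them the collagen cross-linker Lox (32.3, 26.4 and 29.6 CPM against 17.8, 18.0 and 25.9 CPM, -0.52 ± 0.16, adjusted p = 0.229). Of 16 genes of enteric neurons and glia, 5 lay higher, among them the glial filament Gfap (3.54, 3.81 and 4.82 CPM against 4.84, 7.67 and 7.74 CPM, 0.73 ± 0.20, adjusted p = 0.188) and S100b (0.965, 1.74 and 1.78 CPM against 2.20, 3.54 and 2.86 CPM, 0.94 ± 0.27, adjusted p = 0.213). Of 17 tested inflammatory cytokines and chemokines, 1 lay lower without overlap, Ccl20, which draws B and T cells to follicles (6.06, 9.43 and 3.67 CPM against 1.82, 3.48 and 3.499 CPM, -1.12 ± 0.39, adjusted p = 0.265). Il1b had 22.4, 24.7 and 6.37 CPM in Model and 7.71, 15.3 and 21.5 CPM in Model_Swim, and inducible nitric oxide synthase Nos2 65.9, 97.7 and 21.1 CPM and 24.2, 47.3 and 49.7 CPM, so that Model 3 was the lowest Model library for both. The lists of neutrophils, mast cells and eosinophils, smooth muscle, skeletal muscle, adipocytes, erythrocytes, squamous epithelium, goblet cells and immediate early genes had 0 genes without overlap. Of 14 glucocorticoid targets, 3 lay higher, Per1, Cdkn1a and Klf9, the last of which had 61.3, 62.8 and 59.8 CPM against 76.7, 79.3 and 76.2 CPM (0.34 ± 0.09, adjusted p = 0.176).

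**Figure D3:**
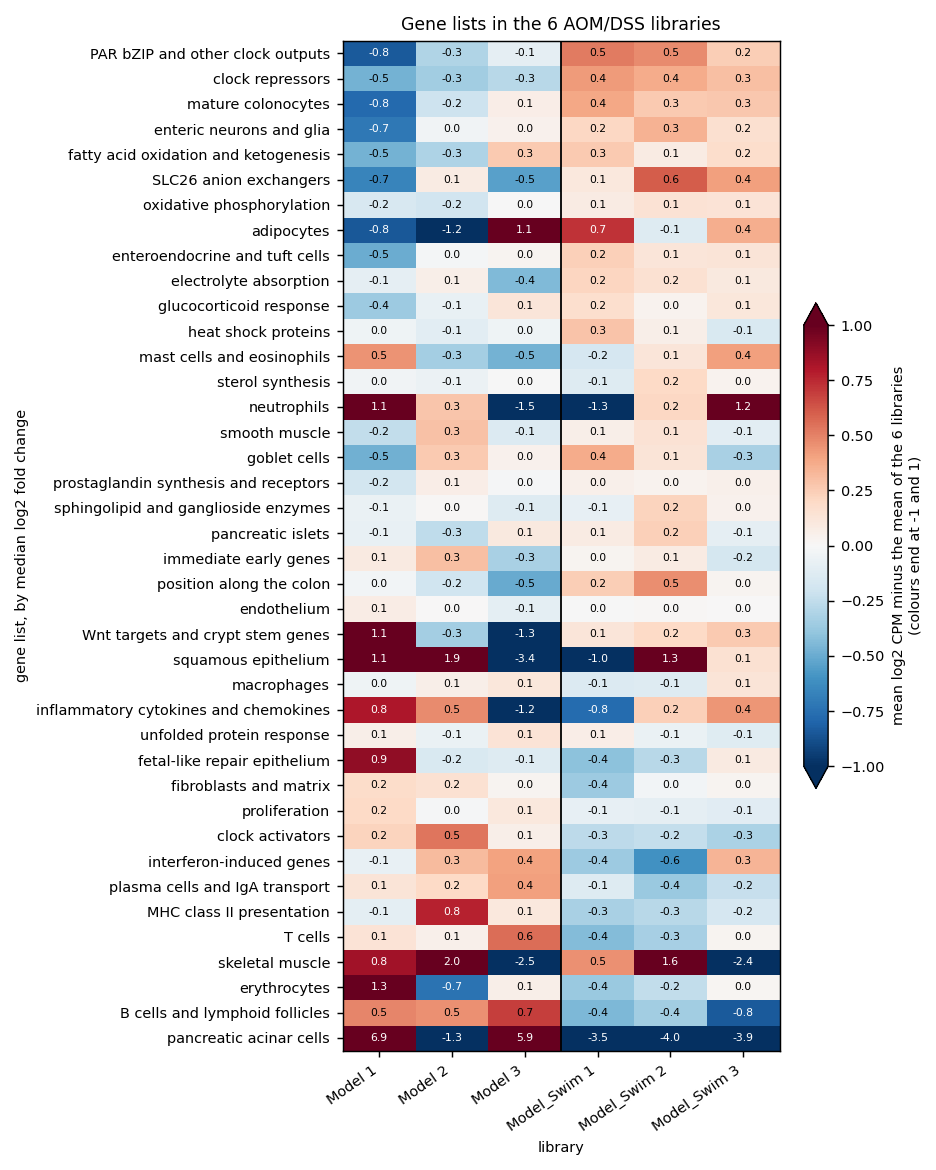
Mean log2 CPM of each of the 40 gene lists in the 6 libraries, less the mean of the 6 libraries, ordered by the list's median log2 fold change. Colours end at -1 and 1 and the numbers give the values. Clock outputs, clock repressors and B cell genes separate the 3 Model columns from the 3 Model_Swim columns, whereas squamous, skeletal muscle, neutrophil and adipocyte genes vary as much within a group as between groups.

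Reads of pancreatic acinar genes, which encode digestive enzymes, were abundant in 2 of the 3 Model libraries. The 25 listed genes summed to 54607, 395 and 26616 CPM in Model 1 to 3 and 260.4, 226 and 201 CPM in Model_Swim 1 to 3. In Model 1 this was 5.54% of the library's counts and in Model 3 it was 2.69%. All 19 tested genes had a log2 fold change below 0 and 16 lay lower without overlap (8.57% of all genes tested did), yet 0 passed. Genes such as Ctrb1, with 8, 3 and 3 counts in Model_Swim, passed the filter on low counts through other libraries. Their lower level in Model_Swim was thus partly given by the filter. Model 2 held few of these reads. Ctrb1, a chymotrypsinogen, had 7837, 7.30 and 3316 CPM in Model and 0.440, 0.163 and 0.159 CPM in Model_Swim (adjusted p = 0.0603), and Cpa1, a carboxypeptidase, 4519, 3.76 and 2367 CPM and 0.165, 0.109 and 0.106 CPM (adjusted p = 0.0603). Reg1, a regenerating protein that the exocrine pancreas secretes, followed the same libraries at 669, 0.654 and 313 CPM and 0.165, 0 and 0.212 CPM (adjusted p = 0.0608). The Model_Swim levels of these genes are at or near the limit of 3 counts, and no fold is given. The summed level of the islet list did not follow these libraries, at 161, 203 and 319 CPM in Model and 344, 322 and 308 CPM in Model_Swim. Of its 12 genes 6 were tested, 3 with a log2 fold change above 0 and 3 below. Pdx1, 1 of those below, had 27, 28 and 15 counts in Model and 11, 13 and 13 counts in Model_Swim. The sum does not show whether islet reads were present.

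At a far lower level, acinar reads also divided the 2 groups as a whole. Pnlip, Cela2a, Cpa1 and Ctrb1 together had 26520, 26.9 and 12526 CPM in Model 1 to 3 and 1.65, 0.435 and 0.742 CPM in Model_Swim 1 to 3. In Ctrl they had between 18.8 and 21.1 CPM, and in Ctrl_Swim 0.548, 15.2 and 0.562 CPM. Each Model library thus held more of these traces than any Model_Swim library. With a term for it, which was chosen after seeing the data, edgeR called 0 genes, and 719 remained at an unadjusted p under 0.05. The term was yes or no, with yes in every Model and Ctrl library and in Ctrl_Swim 3, and no in the others. Its size was thus set within Ctrl_Swim alone, by Ctrl_Swim 3 against Ctrl_Swim 2 and Ctrl_Swim 4. In the 6 libraries of the comparison, this division and swimming cannot be told apart. Neither the calls lost nor the folds kept under this term can therefore separate them. With the mean level of the acinar list as a covariate, 1 gene passed, the pancreatic lipase-related Pnliprp1 (named after its values were seen), which is none of the 11. Every one of the 11 genes lost its call under both of these terms, with its direction kept. The fold changes mostly stayed near their size without a term, as for Tef (1.55 with the acinar covariate and 1.60 with the term for traces), Nr1d1 (1.52 and 1.53) and Arntl (-1.84 and -1.58), and were smaller for Per3 with the acinar covariate (0.63) and for St3gal5 (1.93 and 1.58). With a further term, in which the traces were summed with those of Clps, edgeR called 7 genes. Only 3 of these were among the 11, namely Tef, Nr1d2 and Arntl (adjusted p = 0.0325 for each), and the rest of the 11 lost their call.

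The Model libraries differed from each other more than the Model_Swim libraries did. The SD of log2 CPM (prior count 2) among the 3 libraries had a median over genes of 0.194 in Model and 0.118 in Model_Swim, and it was larger in Model for 11136 genes, which is 71.9% of those tested. A range of over 2-fold was found in 2570 genes among the Model libraries and in 1194 genes among the Model_Swim libraries. In 1288 of the 2570 genes Model 3 was the library farthest from the other 2, in 863 it was Model 1 and in 419 Model 2. The root mean square difference of log2 CPM was 0.655 between Model 1 and Model 2, 0.998 between Model 1 and Model 3 and 0.989 between Model 2 and Model 3, against 0.512 to 0.548 among the Model_Swim libraries. Model 2 lay nearest to the mean of Model_Swim, at 0.635, before Model 3 at 0.784 and Model 1 at 0.828. From the mean of Ctrl, Model 3 lay nearest at 0.722, then Model 2 at 0.985 and Model 1 at 1.096. These distances are given as a description.

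**Figure D4:**
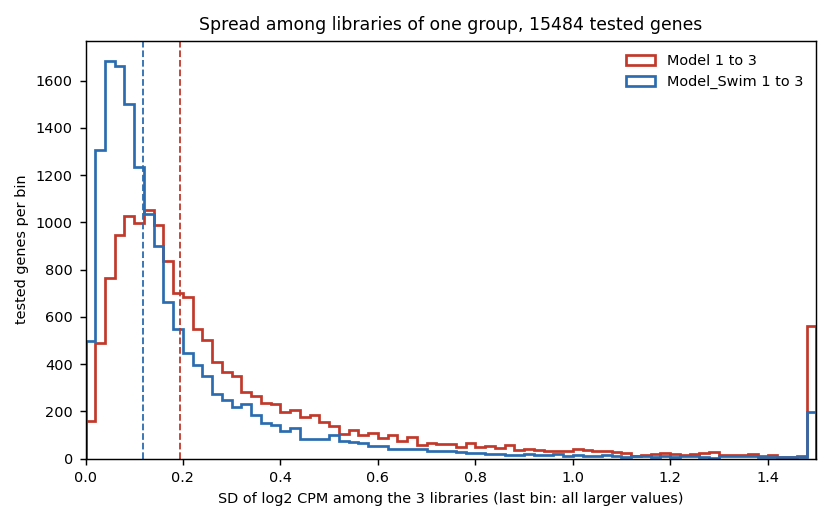
Number of tested genes by the SD of log2 CPM among Model 1 to 3 (red) and among Model_Swim 1 to 3 (blue), in bins of equal width, with dashed lines at the medians of 0.194 and 0.118. The red curve is shifted towards larger SDs, and its last bin, which holds all larger values, is the higher one.

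The lists with the widest spread among Model libraries were acinar (median SD 5.27), squamous epithelium (3.57) and skeletal muscle (2.16), against 0.442, 1.79 and 2.002 in Model_Swim. Krt5, a keratin of squamous basal cells, had 168, 462 and 1.15 CPM in Model and 28.2, 281 and 204 CPM in Model_Swim, and Acta1, skeletal muscle actin, 67.2, 142 and 10.4 CPM and 47.4, 90.7 and 8.96 CPM. Model 3 was the lowest Model library for both, and the swimmers were far apart as well. Single swimmers stood apart too, as for Tgm4, a transglutaminase, with 1.72, 0.599 and 0.115 CPM in Model and 0.385, 1.14 and 155 CPM in Model_Swim. Wnt targets and crypt stem genes (1.01 against 0.132) and genes of position along the colon (0.779 against 0.118) were spread in Model alone. Hoxb13, expressed in the most distal colon and rectum, had 170.2, 168 and 7.58 CPM in Model and 76.3, 80.7 and 74.0 CPM in Model_Swim (-0.58 ± 0.72, adjusted p = 0.772). Model 3 was thus far below the other 5 libraries of the comparison. B cell genes were the opposite case, with a median SD of 0.153 in Model and 0.312 in Model_Swim, and clock repressors had 0.273 and 0.121.

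The number of genes called depended on Model 3. Without Model 3, 327 genes passed, 232 higher and 95 lower, and the 11 genes were among them. The lower ones included many keratin genes, such as Krt2 and Krt71, and acinar genes, such as Pnlip, Ctrb1, Cpa1 and Reg1. The genes with the lowest adjusted p in that fit, named after their values were seen, were Slc51a, Cyp2c65 and Hoxb8. Slc51a, a subunit of the basolateral bile acid transporter, had 0.858, 0.545 and 53.7 CPM in Model and 60.6, 48.4 and 56.8 CPM in Model_Swim. Cyp2c65, a cytochrome P450 of the gut, had 26.3, 26.9 and 231 CPM and 229.7, 230.1 and 230.1 CPM, and Hoxb8, a gene of position along the body axis, 1.34, 1.04 and 23.8 CPM and 16.7, 20.2 and 17.4 CPM. In all 3 genes, and in Car1, Model 3 sat at or near the level of the swimmers while Model 1 and Model 2 were low. Car1 passed in this fit as well (4.15 ± 0.23, adjusted p = 3.88e-06). In the same fit 15 of the 22 genes of fatty acid oxidation and ketogenesis were higher at an adjusted p under 0.05, whatever the fold. So were 11 of the 20 of oxidative phosphorylation, 9 of the 20 of mature colonocytes and 0 of the 17 B cell genes. Over all genes tested, 5.62% had such an adjusted p, higher and lower ones together. Among the genes described above that did not pass with all libraries, Npas2 (-1.17 ± 0.14, adjusted p = 0.000776), Nfil3 (-1.26 ± 0.31, 0.039), Hlf (1.40 ± 0.31, 0.0279), Per2 (1.00 ± 0.25, 0.0421), Fabp2 (1.71 ± 0.20, 0.000674), Hoxb13 (-1.13 ± 0.26, 0.032), Pla2g4f (-1.13 ± 0.16, 0.00254), Spon2 (-1.26 ± 0.20, 0.00454), Vsig2, Slc2a5 and Slc22a4 passed without Model 3. Without Model 2, 68 genes passed, 13 higher and 55 lower, and all 19 acinar genes had an adjusted p under 0.05. Without both Model 1 and Model 3, which leaves a lone Model library whose spread is assumed to be that of the other groups, 214 genes passed, 10 of the 11 among them (Per3 was not). In this fit 16 of the 17 B cell genes, 20 of the 20 oxidative phosphorylation genes and 20 of the 22 fatty acid oxidation genes had no overlap in the same direction, but with 1 Model library so did many of all tested genes, 5627 higher and 5070 lower of 15952. Single calls also ended when a library was left out. Arntl, Ciart, Dbp, Gm6086 and Per3 lost theirs without Model_Swim 2, Arntl, Dbp, Gm6086 and Per3 without Model_Swim 1, Arntl and Gm6086 without Model_Swim 3, Nr1d2 and Per3 without Model 1 (log2 fold changes of 0.98 and 0.91, adjusted p = 0.0126 and 0.0133, so by the fold alone), and Nr1d2 without Model 2, while Tef, St3gal5, Nr1d1 and Slc26a1 kept theirs in each of these fits.

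**Figure D5:**
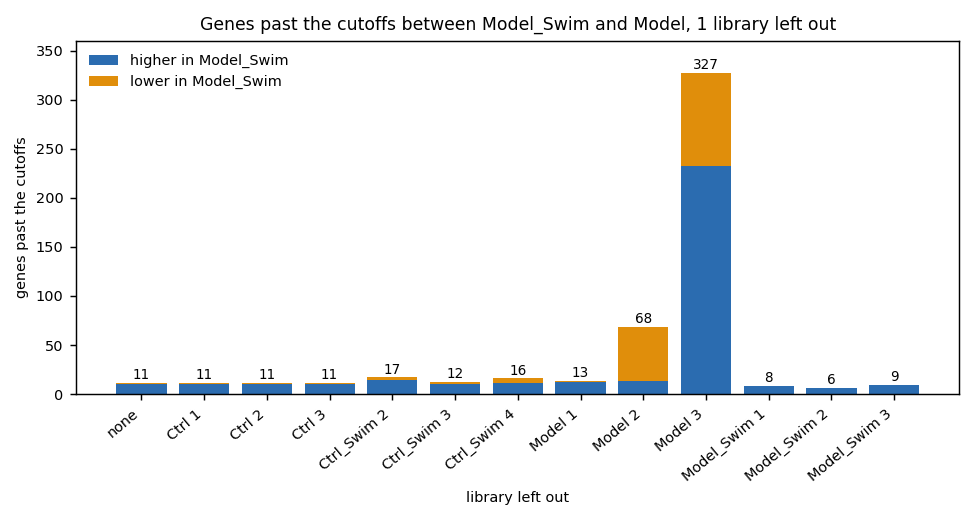
Genes past the cutoffs between Model_Swim and Model in the fit of all libraries (none) and in fits that each leave out the named library, split into higher (blue) and lower (orange) in Model_Swim. The bars lie between 6 and 17 except without Model 2 (68) and without Model 3 (327).

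The genes that the study's text names for this model also show the spread. Tfrc, the transferrin receptor, had 209, 149.9 and 167 CPM in Model and 213, 265 and 222 CPM in Model_Swim, a narrow separation. Ptges, a prostaglandin E synthase, had 15.7, 22.7 and 18.5 CPM and 13.4, 13.1 and 14.7 CPM, likewise apart, at -0.47 ± 0.18, adjusted p = 0.297. Pla2g4f, a cytosolic phospholipase, had 20.4, 19.2 and 3.73 CPM in Model and 8.42, 9.08 and 9.49 CPM in Model_Swim, so that Model 3 lay below and Model 1 and Model 2 above all swimmers. Cldn15, a tight junction claudin, had 90.1, 113 and 160.3 CPM and 159, 146 and 159 CPM, with Model 3 level with the swimmers. The Wnt receptor Fzd9 and the prostaglandin receptor Ptger2 overlapped, with log2 fold changes of 0.47 ± 0.43 and 0.07 ± 0.23.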

How the data were processed

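Whole-tissue colorectal RNA of 12 mice was sequenced (TruSeq Stranded mRNA libraries on an Illumina HiSeq), 1 library per mouse and 3 per group. The p-values thus measure the spread between mice, pooled over the 4 groups. That spread was larger in Model than in Model_Swim for 71.9% of genes tested, so the pooled value may be too small for Model. The authors used Trimmomatic for trimming, HISAT2 for alignment to GRCm38.p6 and HTSeq-count for counting, and deposited raw counts per gene for 18514 genes. FPKM values deposited beside them were made by the authors with Cufflinks. Versions of these tools, the annotation release and the strand setting are not given in the sources used here, and the paper and the labels name different extraction kits. Names of 12 genes had turned into dates.

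Counts were tested with edgeR 4.0.16 (R 4.3.3; filterByExpr with a minimum count of 10, TMM, quasi-likelihood test, Benjamini-Hochberg over the 15484 genes left) in 1 fit of 4 groups, with an adjusted p threshold of 0.05 and folds over 2 or under 0.5. An exact permutation test of 3 against 3 libraries cannot go below 0.1 and was not used. Groups came from the labels. FPKM values were tested with limma 3.58.1 on log2(FPKM + 1) and log2(FPKM + 0.1), after a minimum mean of 0.5 FPKM, and DESeq2 1.42.0 was run on the counts, all as alternatives, beside covariates, a replicate block and left-out libraries. The term for traces without Clps and the 6-library fit without Model 3 were added after seeing the data.

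The members and the 40 gene lists were chosen with earlier results of these data known. Genes were named if past the cutoffs, if among the 10 higher or 10 lower with the lowest p of the other genes without overlap (mean of at least 1 CPM), if in a clock list, if among the 4 most abundant or 2 lowest p of a list, if among the 6 with the widest range in either group, or if named in the study's text. Outside this rule, Angptl4, Ccr7, Cyp2c65, Gal3st2, H2-Oa, Hoxb8, Krt20, Mcm3, Mcm7, Slc51a and the overlapping neighbours were named after their values were seen. Of the 11 genes past the cutoffs, 1 is not reported here, nor are some genes of the lists. Promoter sequences and gene positions are from RefSeq GRCm38.p6.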

Additional observations from a re-analysis of the deposited data

How the results depend on the processing

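Of the 11 genes between Model_Swim and Model, all 11 passed with DESeq2's size factors and 9 with limma on log2(FPKM + 1), which called 11. DESeq2 called 100 genes (41 higher and 59 lower), limma on log2(FPKM + 0.1) 18, counts without a filter 34, the 6 AOM/DSS libraries alone 2, a squamous covariate 51, the acinar covariate 1, the term for trace pancreatic reads 7 and that term without Clps 0 (719 at an unadjusted p under 0.05 by edgeR, 100 genes by DESeq2 without the term). Leaving out single libraries gave 6 to 327 genes, leaving out both Model 1 and Model 3 gave 214, and the 6-library fit without Model 3 gave 241. The interaction (0 genes) had 209 by DESeq2, 2 with the acinar covariate (Pnliprp1 and Zfp579), 32 with the trace term, 249 without both Model 1 and Model 3 and 0 to 248 with single libraries left out, 62 of them without Ctrl_Swim 2, 20 without Model 1 and 38 without Model 2. Genes without overlap (2615) numbered 2668 to 5690 with single libraries left out, 2668 to 2672 of them without a Ctrl or Ctrl_Swim library and more without an AOM/DSS library, where fewer values must separate. Deviations from the group mean correlated at -0.26, 0.41 and 0.17 between Model and Model_Swim libraries of equal number 1, 2 and 3. Among the Model libraries, only number 2 correlated best with its own number. Whether equal numbers mark paired samples was not tested. The replicate block called 22 genes over 12 libraries and 9 over the 6, of which 1 was among the 11. Prox1, not called, went from -0.25 to 1.87 without Model 1, the highest of its values with single libraries left out (the lowest, -0.76, came without Model 3) (adjusted p 0.0126 by edgeR) and 1.51 without both Model 1 and Model 3, and its adjusted p ranged from 0.00012 to 0.999 over the alternatives. Of 27 alternatives, calls were lost in 3 for Tef and St3gal5, 5 for Nr1d1 and Slc26a1, 6 for Ciart, 7 for Arntl and Dbp, 8 for Nr1d2 and Gm6086 and 11 for Per3. The cause of these changes was not tested. List medians were recomputed 1080 times, and 1004 moved by less than the spread between libraries. Depth limited genes near 3 counts, such as Slc26a1 in Model.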
